A study of Mus musculus with 12 samples.

Results

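The genes of the antibody light chain constant regions, Igkc, Iglc1, Iglc2 and Iglc3, were followed together with Jchain and Mzb1 through 6 stages of B cell activation by RNA-Seq. These 6 genes were taken by their Entrez identifiers from the 27179 genes of the count table, and all 6 were among the 12750 genes abundant enough to be tested. The cells were splenic B cells of male C57BL/6 mice, given in the study's methods as 6 to 12 weeks old, with no allele or transgene that differed between the groups. Each stage had 2 libraries from biological replicates, which makes 12 libraries in all.

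Naive B cells were untreated and were sorted by a gate that included IgM+ and IgDhi. All later stages came from B cells isolated by negative selection and cultured with lipopolysaccharide (LPS) at 25 μg/ml. Activated but undivided CD69+ cells were sorted after 3, 10 and 33 h with the help of a dye that division dilutes. On day 4, expanded B cells (expanded cells) were sorted as CD22+CD138- and plasmablasts as CD22-CD138+ from cultures that, per the study's methods, were seeded at a lower density than those of 3 to 33 h. The step from 33 h to expanded cells therefore also crosses from one kind of culture to the other, and the effects of both cannot be told apart. LPS drives B cells without T cell help, so the plasmablasts are those of a culture dish. Because the naive cells were gated on IgD and the cultures were not, the step from naive cells to 3 h also compares a sorted with a negatively selected population, and these cannot be told apart. In bulk RNA, fewer cells of a type and less RNA per cell cannot be told apart either.

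An antibody pairs heavy chains with light chains, and each B cell uses a light chain from either the kappa or the lambda locus. Igkc is the only constant gene of the kappa locus. The lambda locus of the mouse holds Iglc1, Iglc2 and Iglc3, each joined to its own joining segment, and in laboratory mice most B cells carry kappa. Jchain encodes the joining chain, which links IgM into pentamers and IgA into dimers and binds the polymeric immunoglobulin receptor. Mzb1 encodes a small protein of the endoplasmic reticulum, first known from marginal zone and B1 B cells, that works with the chaperone Grp94 in antibody assembly and secretion. Antibody-secreting cells are known for high levels of all of them.

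In GRCm38 (mm10), Igkc (Entrez 16071) lies at chr6:70726435-70726754 on the plus strand. Iglc1 (110785) lies at chr16:19061752-19062071, Iglc3 (110787) at chr16:19065365-19065681 and Iglc2 (110786) at chr16:19198536-19198852, all on the minus strand. For these 4 genes the counted interval was a single coding exon of 317 or 320 bases, without the 3′ untranslated region.

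The lambda constant genes are shown because their counts turn on how well reads tell them apart. The sequences are from the counted exons in the GENCODE transcripts of GRCm38, 5′ to 3′ on the coding strand. The first 280 bases of each exon are printed, at chr16:19061792-19062071 for Iglc1, chr16:19198573-19198852 for Iglc2 and chr16:19065402-19065681 for Iglc3. In Iglc2 and Iglc3, capitals mark the 11 bases at which they differ from each other, and in Iglc1 they mark the 70 bases that match neither of the others.
Iglc1: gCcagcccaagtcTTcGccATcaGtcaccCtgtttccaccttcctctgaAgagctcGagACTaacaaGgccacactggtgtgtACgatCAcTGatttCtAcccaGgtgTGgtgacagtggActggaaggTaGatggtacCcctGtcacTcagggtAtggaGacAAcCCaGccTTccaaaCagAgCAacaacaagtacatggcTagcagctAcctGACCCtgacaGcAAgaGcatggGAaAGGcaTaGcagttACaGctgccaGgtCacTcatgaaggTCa
Iglc2: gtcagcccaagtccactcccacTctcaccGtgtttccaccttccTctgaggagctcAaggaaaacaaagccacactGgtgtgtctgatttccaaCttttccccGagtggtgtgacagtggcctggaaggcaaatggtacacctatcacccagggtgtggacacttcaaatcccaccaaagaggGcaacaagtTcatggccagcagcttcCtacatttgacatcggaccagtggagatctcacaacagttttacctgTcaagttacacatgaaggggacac
Iglc3: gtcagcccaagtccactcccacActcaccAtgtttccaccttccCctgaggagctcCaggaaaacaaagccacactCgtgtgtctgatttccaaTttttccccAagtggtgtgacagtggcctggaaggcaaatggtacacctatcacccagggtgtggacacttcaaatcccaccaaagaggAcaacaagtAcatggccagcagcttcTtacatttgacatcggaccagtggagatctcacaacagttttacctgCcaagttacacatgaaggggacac

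Iglc2 and Iglc3 were 96.5% identical over 317 bases, while Iglc1 shared 73.5% with Iglc2 and 74.1% with Iglc3. No window of 81 bases, the read length given in the study's methods, was the same in Iglc2 and Iglc3. However, 43 of the 237 windows, or 18.1%, differed at a single base. The split between Iglc2 and Iglc3 is therefore less certain than the split between either of them and Iglc1, and this bears on their separate fold changes. In the ratios within the lambda locus, Iglc1 was set against the sum of the other two. Igkc was at most 53.8% identical to any lambda constant gene.

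Total counts per library ran from 23026619 to 60585587. The sort markers followed the labels, since Cd22 had 96.1 and 101 RPKM in expanded cells and 0.367 and 0.431 in plasmablasts, and Sdc1, which encodes CD138, had 1.27 and 1.71 in expanded cells and 47.6 and 48.0 in plasmablasts. RPKM are counts scaled to exon length in kilobases and to library size, the latter by the TMM method. The naive libraries stood apart in markers of other cells. The summed level of 8 myeloid markers, carried there by Lyz2, S100a8 and S100a9, was 171 to 418 RPKM in them and at most 11.6 in any later library, and that of 5 erythroid markers was 290.2 to 379.6 against at most 3.20. S100a8 was at 0 counts in every later library, whereas Itgam, in the same list, was higher in expanded cells (4.92 and 5.43 RPKM) than in naive cells (1.26 and 2.11), as was Adgre1. Of 7 T cell markers, which summed to 31.5 to 34.5 RPKM in naive cells and 6.01 to 17.8 later, Lck carried most of the sum, with 29.4 and 32.3 in naive cells. Cd3e had 3 and 9 counts in the naive libraries and at most 1 elsewhere, while Cd3g had 12 and 15 counts in the naive libraries and 27 and 33 in plasmablasts. The 4 NK markers summed to 8.37 to 9.30 RPKM in naive cells and at most 3.06 later. Naive replicate 1 held more of the myeloid RNA, with 5032 counts of Lyz2 (141 RPKM) against 1642 (60.2 RPKM) in replicate 2. No later library had more than 2 counts of Lyz2.

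Igkc was the most abundant of the 6 genes in every library. Ranks by RPKM were taken among 23699 genes, without mitochondrial, ribosomal RNA, X, Y and unmatched genes or variable, diversity and joining segments. In this set Igkc ranked between 1st and 3rd in every library. Its level was 9037 and 9652 RPKM in the naive libraries, 7274 and 6790 after 3 h, 6277 and 5676 after 10 h, and 6661 and 8921 after 33 h. It was 19646 and 25756 RPKM in expanded cells and 162191 and 179069 in plasmablasts. The 2 plasmablast libraries were far above all others and the 4 day 4 libraries were above all earlier ones, while the libraries of 3 h and 33 h overlapped. In order of mean level the stages were 10 h, 3 h, 33 h, naive, expanded and plasmablast. Igkc alone took 3.80% and 4.11% of all counts in plasmablasts, against 0.255% and 0.266% in naive cells.

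Iglc1 was measured at 538 and 501 RPKM in naive cells, 252 and 282 after 3 h, 534 and 443 after 10 h, 657 and 719 after 33 h, 1471 and 1514 in expanded cells, and 5105 and 5415 in plasmablasts. The 3 h libraries were the lowest and each stage after 10 h was above the one before it, with overlap between 10 h and naive cells only. Iglc2 stood at 452 and 444 RPKM in naive cells, 267 and 238 after 3 h, 433 and 379 after 10 h, 338 and 377 after 33 h, 586 and 611 in expanded cells, and 2229 and 2451 in plasmablasts. Its stages did not overlap with their neighbours in the order 3 h, 33 h, 10 h, naive, expanded and plasmablast. Iglc3 was at 692 and 722 RPKM in naive cells, 189 and 252 after 3 h, 603 and 534 after 10 h, 392 and 402 after 33 h, 472 and 501 in expanded cells, and 1453 and 1664 in plasmablasts. Both naive libraries lay above both expanded libraries for Iglc3, and below them for Iglc1 and Iglc2. Iglc3 was the highest of the 3 lambda genes in both naive libraries and the lowest of them in all 4 libraries of day 4.

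**Figure D1:**
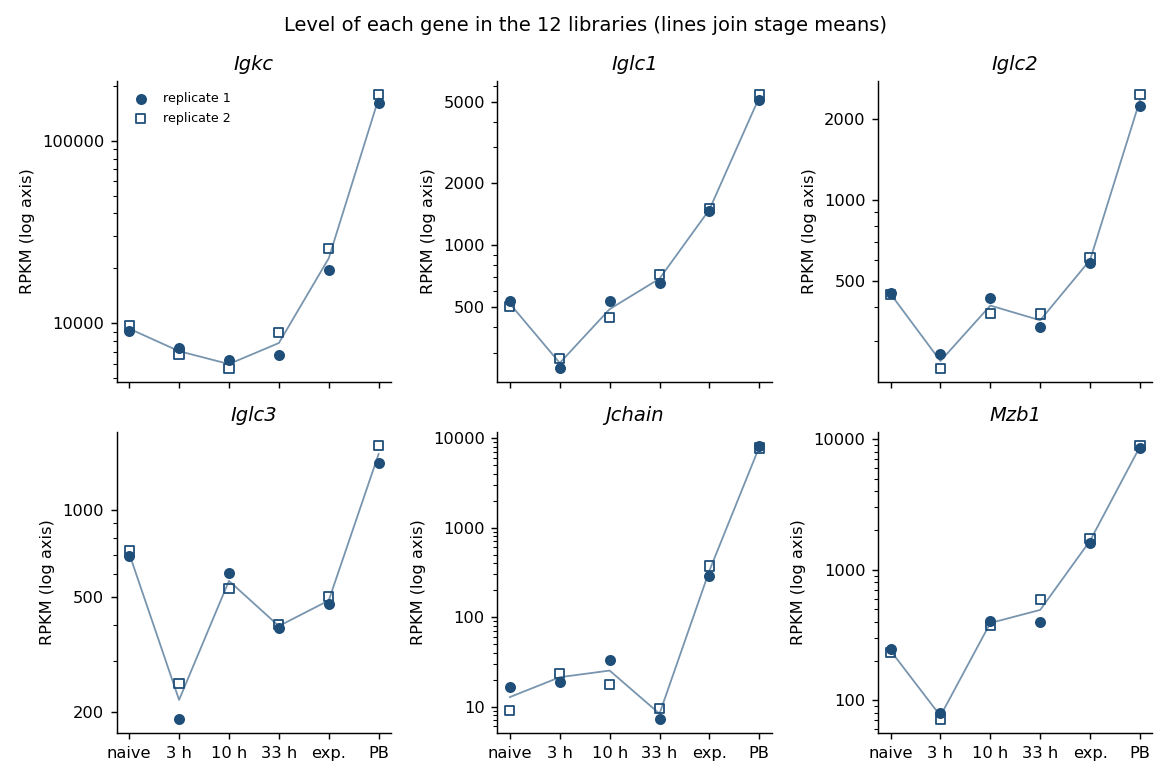
Level of each of the 6 genes in RPKM (log axis, scaled separately per panel) in naive cells, at 3, 10 and 33 h, in expanded cells (exp.) and in plasmablasts (PB). Filled circles are replicate 1, open squares replicate 2 and lines join stage means, and in every panel both plasmablast libraries are the highest.

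Jchain (Entrez 16069, chr5:88519809-88527897, 2102 bases of exon) covered the widest range. It had 1167 and 495 counts in the naive libraries, or 16.4 and 9.13 RPKM, and 18.9 and 23.6 RPKM after 3 h. It had 32.8 and 17.7 RPKM after 10 h, 7.22 and 9.43 after 33 h, 289.6 and 371.6 in expanded cells, and 8216 and 7779 in plasmablasts. The undivided stages lay close together, with overlap between 33 h and naive cells and between 3 h and 10 h, and the replicates of naive cells and of 10 h differed more than those of any day 4 stage. Naive replicate 1, with more Jchain, also held more myeloid RNA and more Igha, the IgA heavy chain. Igha had 502 against 306 counts, which is 12.1 against 9.69 RPKM once scaled to library size. Other heavy chain constant genes did not all go this way. Ighg2b was also higher in replicate 1, at 4.47 against 3.43 RPKM. Ighg2c was higher in replicate 2 (3.12 against 0.557 RPKM), as was Ighg1 (0.446 against 0.200), both with at most 81 counts. The part of other cells in the Jchain level was not tested. From the lowest stage mean, after 33 h, to the plasmablasts the level differed 961-fold, against 28.6-fold from lowest to highest for Igkc, 19.7-fold for Iglc1, 9.26-fold for Iglc2, 7.06-fold for Iglc3 and 116-fold for Mzb1. Among the same 23699 genes, Jchain ranked 4th and 5th by RPKM in the plasmablast libraries and between 2636th and 6659th in the 8 libraries before day 4.

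Mzb1 (Entrez 69816) spans chr18:35647265-35650266 with 906 bases of exon. It was at 247 and 233 RPKM in naive cells, 80.2 and 71.5 after 3 h, 407 and 374 after 10 h, 397 and 588 after 33 h, 1607 and 1731 in expanded cells, and 8643 and 8912 in plasmablasts. Only the libraries of 10 h and 33 h overlapped, and the replicates of 33 h were the widest apart. Among the same 23699 genes, Mzb1 ranked 3rd by RPKM in both plasmablast libraries. The 7 markers of marginal zone B cells, the cells for which the gene is named, summed to 252 to 269 RPKM in naive cells, 207 to 278 after 3 h and 120 to 154 from 10 h onwards. Single markers moved more than this sum from expanded cells to plasmablasts. By stage means, Cd9 went from 21.2 to 43.1 RPKM, Cd1d1 from 2.94 to 11.5, Myof from 3.56 to 10.3 and Cr2 from 4.01 to 9.27. Only Fcrl5 fell, from 40.0 to 5.29. The 4 B1 markers summed to 34.6 to 35.2 RPKM in naive cells, 13.6 to 21.4 after 3 h and 53.9 to 74.1 after 10 h. They summed to 147 to 192 after 33 h, 296 in both expanded libraries and 163 to 172 in plasmablasts. In expanded cells most of this was Zbtb32, with 148 and 155 RPKM, and Bhlhe41, with 113 and 115. From naive to expanded cells Spn went from 15.8 and 17.7 RPKM to 27.2 and 32.6. Cd5 went the other way, from 2.53 and 2.73 RPKM to 0.783 and 0.968. As Mzb1 is also known from plasmacytoid dendritic cells, their 5 markers were followed too. They summed to 38.7 to 41.6 RPKM in naive cells, 23.4 to 24.0 after 3 h and 189.9 to 198.8 in plasmablasts, but nearly all of this was Bst2, with 183.5 and 193.5 RPKM in plasmablasts. Siglech, a defining marker, had 21 and 40 counts in the naive libraries and 1 and 5 in plasmablasts, where Klk1 was at 0. The part of these cell types in the Mzb1 level was not tested.

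Consecutive stages were compared with edgeR's glmTreat, which calls a gene where its change lies beyond 1.5-fold at an adjusted p under 0.05 (Benjamini-Hochberg, over all 12750 genes). Between naive cells and 3 h, 4 of the 6 genes fell and 0 rose, where 24.3% of all tested genes fell and 21.0% rose. Iglc3 had a log2 fold change of -1.67 (SE 0.12, adjusted p = 1.12e-06) and Mzb1 one of -1.66 (SE 0.15, adjusted p = 7.40e-06). Iglc1 fell by 0.96 on the log2 scale (adjusted p = 9.18e-04) and Iglc2 by 0.83 (adjusted p = 0.00869). The log2 fold change of Igkc was -0.41 (SE 0.14) and that of Jchain 0.73 (SE 0.32), and glmTreat called neither. The adjusted p of Jchain was 0.271, and 0.0311 without naive replicate 1, at a log2 fold change of 1.22, with a range of 0.0311 to 1 over all alternatives. The median log2 fold change was -0.89 for the 6 genes and -0.03 for all tested genes.

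From 3 h to 10 h, 3 of the 6 genes rose and 0 fell, against 17.4% and 13.4% of all tested genes. Mzb1 rose by 2.37 (SE 0.15, adjusted p = 4.48e-07), Iglc3 by 1.36 (SE 0.12, adjusted p = 3.10e-05) and Iglc1 by 0.87 (SE 0.10, adjusted p = 0.00711). The call of Iglc1 was lost without 10 h replicate 1 (0.73, adjusted p = 0.114, with a range of 8.32e-06 to 0.226 over all alternatives). Iglc2 had a log2 fold change of 0.69 (SE 0.10, adjusted p = 0.149), Jchain one of 0.24 (SE 0.31) and Igkc one of -0.23 (SE 0.14). The change of Igkc had the other sign, at 0.10, when libraries were scaled by size alone, and that of Jchain was -0.27 without 10 h replicate 1. The medians were 0.78 for the 6 genes and 0.02 for all tested genes.

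Between 10 h and 33 h, Jchain was the single gene of the 6 that was called, and it fell, as did 4.45% of all tested genes while 10.1% rose. Its log2 fold change was -1.61 (SE 0.32, adjusted p = 0.0175). The call was lost when single libraries were left out, with a log2 fold change of -1.09 without 10 h replicate 1 (adjusted p = 0.122), -1.42 without 33 h replicate 1 (0.148) and -1.80 without 33 h replicate 2 (0.0528). It was also lost without 3 h replicate 1 (-1.61) or 3 h replicate 2 (-1.59). These libraries are not part of the step, but they enter the gene filter, the scaling and the estimate of the spread that all stages share. The 2 libraries of 33 h nevertheless lay below both of 10 h. Igkc, Iglc1 and Mzb1 had log2 fold changes of 0.38, 0.49 and 0.33, and Iglc2 and Iglc3 of -0.18 and -0.52. With the F-test of any change, edgeR also called Igkc (adjusted p = 0.0441), Iglc1 (adjusted p = 0.00144) and Iglc3 (adjusted p = 0.00366), so that Iglc1 and Iglc3 moved in opposite directions at this step, where 45.5% of all tested genes were called. The medians were 0.08 for the 6 genes and -0.02 for all tested genes.

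As cells divided, from 33 h to expanded cells, 4 of the 6 genes rose and 0 fell, against 6.94% and 3.66% of all tested genes. Jchain rose by 5.32 (SE 0.36, adjusted p = 8.46e-06), which placed it 51st among the 12750 tested genes by rise. Mzb1 rose by 1.76 (SE 0.14), Igkc by 1.54 (SE 0.15) and Iglc1 by 1.12 (SE 0.10). Iglc2 had a log2 fold change of 0.74 (adjusted p = 0.134) and Iglc3 one of 0.29 (SE 0.12, adjusted p = 1). The medians were 1.33 for the 6 genes and -0.02 for all tested genes.

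From expanded cells to plasmablasts all 6 genes rose, against 13.9% of all tested genes that rose and 12.2% that fell. Jchain rose by 4.60 (SE 0.35, adjusted p = 4.20e-06) and Igkc by 2.91 (SE 0.15, adjusted p = 5.13e-08). Mzb1 rose by 2.39, Iglc2 by 1.97, Iglc1 by 1.82 and Iglc3 by 1.68, with standard errors of 0.10 to 0.15. The medians were 2.18 for the 6 genes and -0.05 for all tested genes.

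Over the whole course from naive cells to plasmablasts all 6 genes rose as well, where 26.6% of all tested genes rose and 23.4% fell. The log2 fold change was 9.28 (SE 0.43) for Jchain, 5.19 (SE 0.17) for Mzb1, 4.19 (SE 0.16) for Igkc, 3.34 (SE 0.11) for Iglc1, 2.38 (SE 0.10) for Iglc2 and 1.14 (SE 0.12) for Iglc3. On a linear scale the levels of the stage means differed 18.3-fold for Igkc and 2.20-fold for Iglc3. Scaling by library size alone shifted the median of all tested genes to -0.24 from naive cells to 3 h, 0.35 from 3 h to 10 h, -0.38 from expanded cells to plasmablasts and -0.26 over the whole course. The share of called genes that rose then moved from 46.3% to 36.0%, from 56.5% to 77.4%, from 53.3% to 28.6% and from 53.1% to 41.3% at these steps. No call among the 6 genes was lost under that scaling, and Iglc2 was called in addition from 3 h to 10 h.

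**Figure D2:**
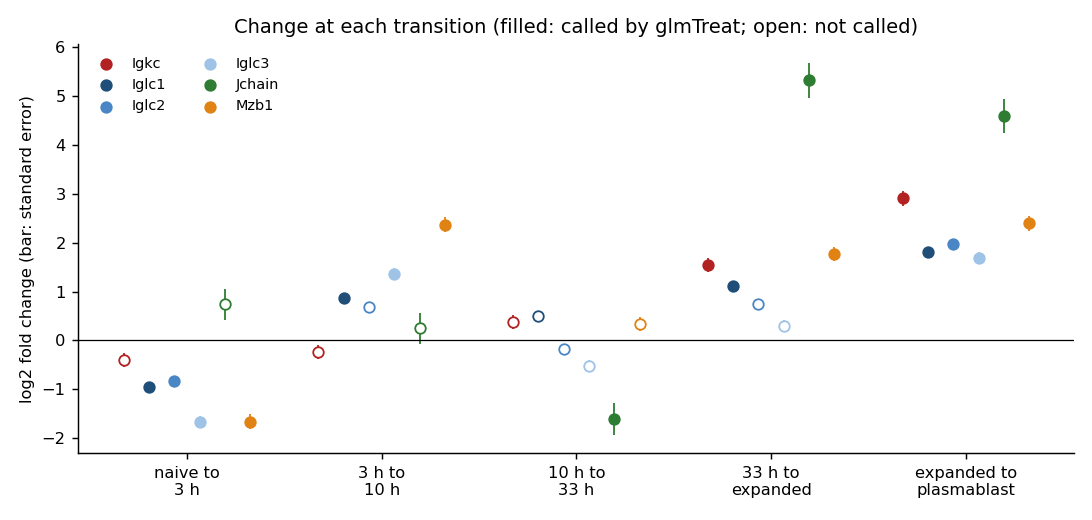
Log2 fold change of each gene at the 5 consecutive transitions, with bars of 1 standard error from the edgeR fit. Filled points were called by glmTreat and open points were not. From expanded cells to plasmablasts all 6 points are filled, between 1.68 for Iglc3 and 4.60 for Jchain.

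The kappa to lambda ratio was taken in each library as the counts of Igkc over the summed counts of Iglc1, Iglc2 and Iglc3. It was 5.41 and 5.83 in naive cells, 10.3 and 8.85 after 3 h, 4.02 and 4.21 after 10 h, and 4.82 and 5.98 after 33 h. It was 7.80 and 9.84 in expanded cells and 18.5 and 18.9 in plasmablasts. The ratio was thus lowest after 10 h and highest in plasmablasts, with a first rise after 3 h, and the libraries of no 2 consecutive stages overlapped. It differed between stages by more than between replicates in an exact permutation test of the F statistic of the log2 ratio over all 10395 ways to pair the 12 libraries (F = 53.5, p = 8.66e-04, adjusted p = 0.00104 over the 6 ratios tested). The smallest p this test can give is 9.62e-05, and 2 libraries against 2 cannot give a two-sided exact p below 0.333, so single steps were not tested.

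The stage means of the ratio were 5.62 ± 0.30 in naive cells, 9.58 ± 1.04 after 3 h, 4.12 ± 0.13 after 10 h, 5.40 ± 0.82 after 33 h, 8.82 ± 1.44 in expanded cells and 18.7 ± 0.24 in plasmablasts (SD, n = 2). Plasmablasts were 3.33-fold above naive cells, by geometric means. This log2 difference of 1.74 became 0.85 with Iglc1 alone as lambda and 2.44 with Iglc2 and Iglc3 alone. As a share, lambda made up 15.1% of the light chain constant counts in naive cells, 9.49% after 3 h, 19.6% after 10 h and 5.08% in plasmablasts. Counting error moved this share by at most 0.265 percentage points either way (exact 95% interval).

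The same ratio was also taken from the variable segments, whose reads come from another part of the transcript and were counted separately, as the sum of 102 kappa over the sum of 3 lambda segments. It was 9.73 and 10.6 in naive cells, 10.8 and 9.17 after 3 h, 5.33 and 5.46 after 10 h, and 6.74 and 7.16 after 33 h. It was 11.2 and 13.2 in expanded cells and 15.0 and 16.1 in plasmablasts. This ratio differed between stages too (exact permutation test, F = 49.1, adjusted p = 7.22e-04). Both ratios were lowest after 10 h and highest in plasmablasts, but the variable ratio of naive cells overlapped with that of 3 h where the constant ratio did not. From naive cells to plasmablasts the variable ratio differed 1.53-fold, which is less than the 3.33-fold of the constant genes.

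**Figure D3:**
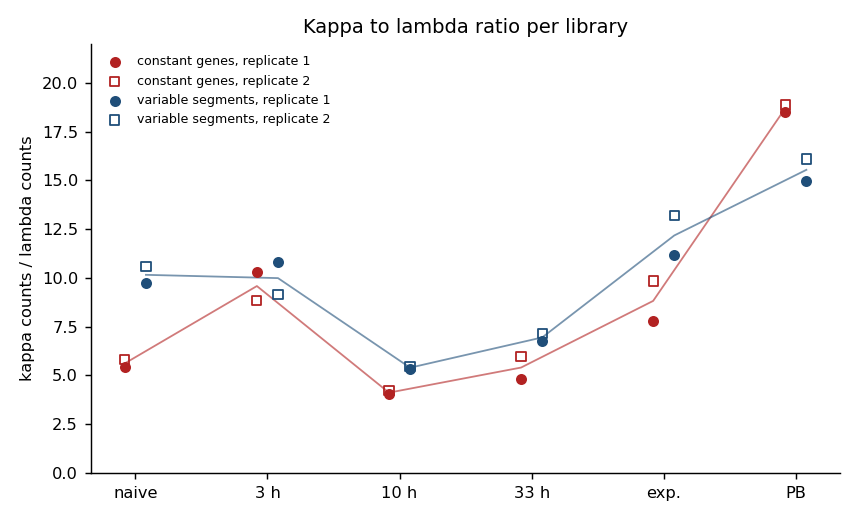
Kappa counts over lambda counts in each library (linear axis from 0), for the constant genes (red) and the variable segments (blue). Filled circles are replicate 1, open squares replicate 2 and lines join stage means. Both ratios are lowest after 10 h, and in plasmablasts the constant ratio is 18.5 and 18.9.

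Within the lambda locus the leading gene changed. The ratio of Iglc1 to Iglc2 plus Iglc3 was 0.474 and 0.434 in naive cells, 0.557 and 0.581 after 3 h, 0.521 and 0.490 after 10 h, and 0.907 and 0.932 after 33 h. It was 1.40 and 1.37 in expanded cells and 1.40 and 1.33 in plasmablasts. All 6 libraries up to 10 h lay below 33 h and the 4 libraries of day 4 above it, whereas expanded cells and plasmablasts overlapped. The ratio differed between stages (exact permutation test, F = 346, p = 1.92e-04, adjusted p = 7.22e-04), and the geometric mean of plasmablasts was 3.01-fold that of naive cells.

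Iglc3 made up 42.1% of the lambda constant counts in naive cells, 29.6% after 3 h, 38.8% after 10 h, 27.4% after 33 h, 18.8% in expanded cells and 16.9% in plasmablasts. Iglc1 went the other way, from 31.2% in naive cells to 47.9% after 33 h, 58.1% in expanded cells and 57.7% in plasmablasts. The share of Iglc2 was 26.7% in naive cells and 25.4% in plasmablasts, and apart from 3 h, where the replicates were at 37.6% and 30.7%, its stage means stayed between 23.1% and 27.7%. The gap between the 3 h replicates was wider than counting error, which came to at most 1.5 percentage points for these shares.

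The joining and variable segments of the lambda locus were set beside them as a description, without a test. Iglj1, the joining segment next to Iglc1, made up 54.6% of the lambda joining counts in naive cells, 43.6% after 10 h, 72.2% after 33 h, 82.1% in expanded cells and 74.6% in plasmablasts. Iglj3 made up 22.5% in naive cells and 7.75% in plasmablasts. The joining segments are short and their counts few, with an error of up to 8.85 percentage points. Among the variable segments Iglv1 went from 51.5% in naive cells to 67.7% in plasmablasts, and Iglv3 from 33.1% to 10.3%. In each of the 3 classes the segment or gene numbered 1 took a larger share in both plasmablast libraries than in both naive ones. Those numbered 2 did not move alike. Iglv2 rose from 16.1% and 14.7% in the naive libraries to 20.4% and 23.6% in the plasmablast libraries. By stage means, Iglj2 went from 22.9% to 17.7% and Iglc2 from 26.7% to 25.4%. Which variable segments were joined to which constant genes was not tested, so a shared number does not mark a shared transcript.

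**Figure D4:**
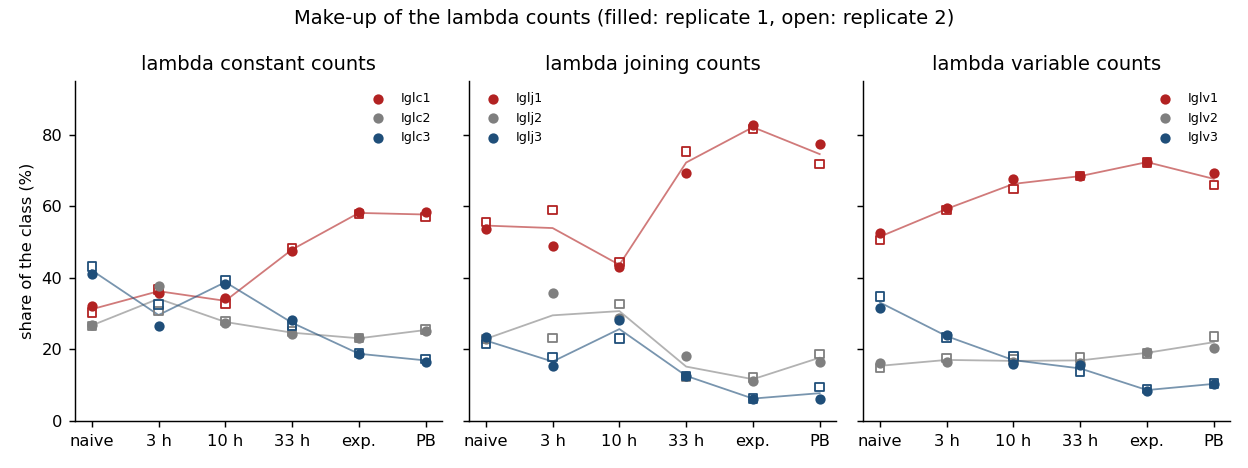
Shares of the lambda constant, joining and variable counts (%) taken by each of the 3 genes or segments of a class, in every library, with lines through the stage means. In the constant panel Iglc3 leads in naive cells with 42.1% and Iglc1 leads on day 4 with 58.1% and 57.7%.

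Light chain constant genes were next compared with heavy chain constant genes, both per kilobase of exon. The ratio was 1.29 and 1.34 in naive cells, 1.40 and 1.55 after 3 h, 1.51 and 1.24 after 10 h, 1.37 and 1.45 after 33 h, 1.55 and 1.63 in expanded cells, and 2.96 and 3.54 in plasmablasts. Plasmablasts stood above all other libraries, while those of 10 h spanned the naive and the 33 h libraries. The ratio differed between stages (exact permutation test, F = 31.5, p = 0.0234, adjusted p = 0.0234). The light chains were counted over coding exons alone and the heavy chains over whole exon sets, so the level of this ratio does not give the number of light chains per heavy chain.

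Jchain was set against Ighm, which encodes the heavy chain of IgM, since the joining chain is built into IgM pentamers. Per kilobase the ratio of Jchain to Ighm had stage means of 0.00235 ± 0.00097 in naive cells, 0.00543 ± 0.00163 after 3 h, 0.00619 ± 0.00282 after 10 h and 0.00136 ± 0.00002 after 33 h (SD, n = 2). It was 0.0248 ± 0.0014 in expanded cells and 0.163 ± 0.008 in plasmablasts. The log2 ratio differed between stages (exact permutation test, F = 73.1, adjusted p = 7.22e-04), and the geometric mean of plasmablasts was 72.7-fold that of naive cells. Plasmablasts thus held more Jchain for a given level of Ighm than any other stage, and 33 h the least.

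Mzb1 and Jchain did not move in step. Their ratio per kilobase was 15.1 and 25.5 in naive cells, 4.23 and 3.02 after 3 h, 12.4 and 21.1 after 10 h, and 54.9 and 62.3 after 33 h. It was 5.55 and 4.66 in expanded cells and 1.05 and 1.15 in plasmablasts. Mzb1 was thus most in excess after 33 h and about level with Jchain in plasmablasts, and the ratio differed between stages (exact permutation test, F = 66.7, p = 3.85e-04, adjusted p = 7.22e-04).

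**Figure D5:**
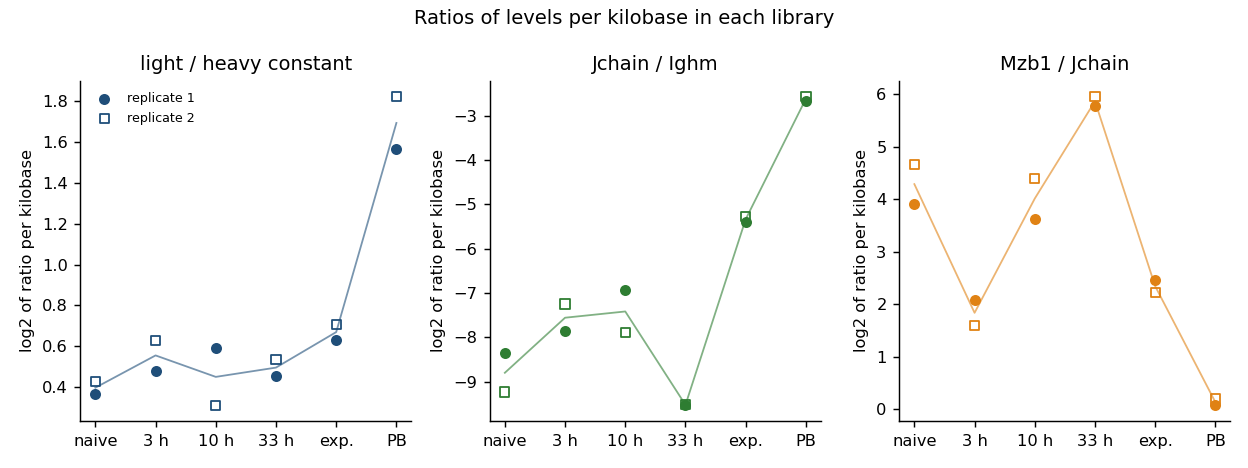
Log2 ratios of levels per kilobase in each library for light over heavy constant genes, Jchain over Ighm, and Mzb1 over Jchain, on separate axes. Filled circles are replicate 1, open squares replicate 2 and lines join stage means. Jchain over Ighm is highest in plasmablasts, and Mzb1 over Jchain is highest after 33 h.

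Genes of the same pathway are given as lists beside the 6 genes for the step from expanded cells to plasmablasts, where 13.9% of all tested genes rose and 12.2% fell, with a median log2 fold change of -0.05. Of 23 partners of antibody assembly in the endoplasmic reticulum, 21 rose and 0 fell, with a median of 1.81, and from naive cells to plasmablasts all 23 rose, where 26.6% of all tested genes did. Txndc5, a disulfide isomerase, rose by 3.43 (SE 0.13), and Sec11c, a subunit of the signal peptidase, by 2.51 (SE 0.09). The chaperone Canx had a log2 fold change of 0.21 and the oxidase Ero1a one of 0.50, and neither was called. From 33 h to expanded cells 8 of these 23 had risen and 0 fallen, where 6.94% of all tested genes rose and 3.66% fell.

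Of 8 heavy chain constant genes, 7 were tested, 5 rose and 1 fell, with a median of 1.64, again beside 13.9% and 12.2% of all tested genes. Igha rose by 2.13 (SE 0.25) and Ighg2c by 2.06 (SE 0.40), while Ighd, the constant gene of IgD, fell by 2.65 (SE 0.33). Among 17 transcription factors known to act on light chain, Jchain or Mzb1 expression, 3 rose and 6 fell, with a median of -0.40, and the share that rose was near the 13.9% of all tested genes. Xbp1, a driver of the secretory programme, rose by 2.36 (SE 0.29), and Prdm1, which encodes Blimp1, by 1.26 (SE 0.21). Spib, an Ets factor of B cells, fell by 5.50 (SE 0.16). Id3, an inhibitor of E proteins, fell by 4.53 (SE 0.17).

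Of 7 receptors of antibody and J chain polymers, including the signalling chains of the B cell receptor, 0 rose and 2 fell, with a median of -0.41, where 13.9% of all tested genes rose and 12.2% fell, so that counts this small say little about the list. Cd5l, a protein that binds IgM through the joining chain, fell by 2.09 (SE 0.47), from 37 to 42 counts in expanded cells to 4 to 9 in plasmablasts. Fcamr, a receptor of IgM and IgA, was also called, with 7 counts in each expanded library and 0 in both plasmablast libraries, which is at least 0.73 lower on the log2 scale when 3 counts per library are taken as the floor. Pigr, the epithelial receptor that carries J chain polymers across cells, had at most 190 counts in any library and 5 in each plasmablast library.

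Of the 7 genes of the surrogate light chain and of light chain rearrangement, 2 had enough counts to be tested. From expanded cells to plasmablasts 0 of them were called, where 13.9% of all tested genes rose and 12.2% fell. Igll1 had at most 2 counts in any library and Rag1 at most 22. Both tested genes, Vpreb3 and Rag1, named here after their values were seen, were called higher in expanded cells than after 33 h. At that step 6.94% of all tested genes rose and 3.66% fell. Rag1 had 0 counts in both 33 h libraries and 5 and 22 in the expanded ones. Vpreb3 was at 159 and 191 RPKM in naive cells, 10.6 and 11.9 after 10 h, 21.0 and 23.6 after 33 h, 144.0 and 152.7 in expanded cells, and 244.1 and 258.9 in plasmablasts. It fell by 2.36 from naive cells to 3 h and by 1.59 from 3 h to 10 h, and rose by 2.73 (SE 0.12, edgeR glmTreat adjusted p = 3.95e-08) from 33 h to expanded cells.

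The genes with the most similar pattern were found by the Pearson correlation of log2 CPM over the 12 libraries, among 5606 genes that are not immunoglobulin genes. The points share libraries and stages, so these values are a description. Igkc was closest to Ppib (r = 0.994), Txndc11 and Txndc5, and Iglc1 to Slc33a1 (r = 0.999), Pdia4 and Sec61b. Iglc2 was closest to Nucb1 (r = 0.990), Selenof and Tmbim4, and Iglc3 to Fis1 (r = 0.977), Ngly1 and Tmed3. Jchain was closest to Selenos (r = 0.982), Edem3 and Trib1, and Mzb1 to Rpl41 (r = 0.992), Gusb and Glipr1.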

How the data were processed

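Polyadenylated RNA was sequenced from 12 libraries, 2 per stage. The authors prepared TruSeq libraries, sequenced them as 81 bp paired-end reads on a NextSeq 500, aligned them to mm10 with Rsubread and obtained gene counts with featureCounts on its inbuilt Entrez annotation; the submitters' processing notes also name CASAVA 1.8.2. The deposited values are raw counts, without normalization or filter. Whether a pair was counted once, and whether strand was used, is not given in the sources used here. Total counts ran from 23026619 to 60585587, and intervals cover counting error only.

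Mitochondrial, ribosomal RNA, X and Y genes, variable, diversity and joining segments and identifiers without a match in the annotation were left out, which left 23699 genes, and filterByExpr kept 12750. edgeR 4.0.16 in R 4.3.3 was used with TMM scaling, robust quasi-likelihood dispersions, 1 layout of all 12 libraries and glmTreat at 1.5-fold; DESeq2 1.42.0 served as an alternative. Ratios were computed from the deposited counts of all genes with 0.5 counts added, and tested by exact permutation in Python 3.11.15. The glmTreat and permutation steps were tested on simulated data. The p-values rest on the spread between 2 replicates per stage. The members and lists were chosen with earlier results of these data known. Of each pathway list, up to 2 genes are named in each direction, those that moved most from expanded cells to plasmablasts among the called ones; also named are Sdc1 and Cd22 as checks of the sort and the 3 genes of average log2 CPM of at least 5 most like each member; other genes were named after their values were seen. Hi-C data were not used.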

Additional observations from a re-analysis of the deposited data

How the results depend on the processing

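The 6 genes at the 6 comparisons of stages gave 36 log2 fold changes, which were recomputed under 23 alternatives. Of the 828 values, 808 kept their direction and their side of the threshold, 8 passed it in addition, 10 no longer passed it and 2 changed sign. The sign changed for Igkc from 3 h to 10 h with library size alone (0.10) and for Jchain at that step without 10 h replicate 1 (-0.27), where leaving out single libraries gave -0.27 to 0.62, and neither was called. The number of the 6 genes called from 10 h to 33 h was 1, and it was 4 with edgeR's F-test, 0 with only the 4 libraries compared, 0 with DESeq2's Wald test, and 0 to 1 when single libraries were left out. The call of Jchain at that step had adjusted p-values from 2.61e-27 (no filter on low counts) to 0.148 (without 33 h replicate 1) over these alternatives. DESeq2 also did not call Iglc2 from naive cells to 3 h (adjusted p = 0.0648, the highest of 5.78e-06 to 0.0648 over the alternatives) or Iglc1 from 3 h to 10 h (adjusted p = 0.226, the highest of 8.32e-06 to 0.226). The number of the 6 genes called at the other 5 comparisons stayed within 1.5-fold under every alternative run. Where a stage was left with 1 library, that library was taken to vary like the others. All 6 ratios kept a significant exact permutation test under every alternative run, with adjusted p-values of 0.00404 to 0.0484 for the light to heavy ratio and of at most 0.00381 for the others.

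No effect shared by libraries of the same replicate number was seen, since 0 of 15 pairs of stages had a correlation of deviations over 0.1 (-0.14 to 0.08). Whether such libraries shared mice or cultures cannot be told from these correlations. A replicate block moved the called genes from 5774 to 5753 from naive cells to 3 h and changed no call among the 6 genes, and the kappa to lambda ratio had an adjusted p of 6.93e-04 with the block (exact permutation test). Of all tested genes, 1352 were called from 33 h to expanded cells, against 5053 with the F-test, 712 with at least 10 counts in every library, 895 with DESeq2 and 855 without 33 h replicate 1. The F-test called 9052, 7942, 5798 and 7256 genes at the other consecutive steps, in order. The F-test asks for any change, where glmTreat asks for one beyond 1.5-fold, and it therefore calls more genes from the same fit. The cause of the other differences was not tested. Depth did not limit the 4 light chain genes, with at least 1077 counts in every library, but the small joining segments and Jchain before day 4 rest on fewer counts.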

Other observations

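The constant and variable counts of a locus were also compared with each other, a view chosen after the values had been seen and given without a test. For kappa, the counts of Igkc over those of the variable segments were 1.04 and 1.06 in naive cells, 1.20 and 1.14 after 3 h, 1.18 and 1.15 after 10 h, 1.07 and 1.08 after 33 h, 0.962 and 1.08 in expanded cells, and 1.06 and 1.10 in plasmablasts. For lambda, the summed Iglc1, Iglc2 and Iglc3 counts over those of the variable segments were 1.86 and 1.92 in naive cells, 1.26 and 1.19 after 3 h, 1.56 and 1.49 after 10 h, 1.49 and 1.29 after 33 h, 1.38 and 1.44 in expanded cells, and 0.857 and 0.938 in plasmablasts. The lambda constant genes thus held almost 2 counts per variable count in naive cells and about 1 in plasmablasts, while kappa stayed within 0.962 to 1.20 in all 12 libraries.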
